A study of Mus musculus with 7 samples.

Results

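The genes described here are 10 genes of pigment cells, and each had a row in all 7 libraries of the series, among 32285 genes in the files. They encode the melanin synthesis enzymes Tyr, Tyrp1 and Dct, the melanosome proteins Pmel and Mlana, the melanosomal transporters Slc45a2, Slc24a5 and Oca2, the cation channel Trpm1, and Mitf, the transcription factor of the melanocyte lineage. The genes were chosen by name, and the choice was made with the fold changes of this same comparison known, so their fold changes are a description and carry no test of their own. The pooled utricles came from wild-type C57BL/6J mice at postnatal day 2 and were cultured as explants without serum. In both groups the explants were damaged with 2 mM gentamicin for 24 h, and as the study describes them they were compared at day 5 after injury. The 4 Gent+Fos OE libraries came from explants that also received AAV-PHP.eB carrying mouse Fos under the CMV promoter for 48 h, and the 3 Gent libraries from explants whose labels name gentamicin alone. A control virus is not named in the labels of the Gent explants, while the study's text calls the comparison group of these data gentamicin control in one place and control AAV in another. The study's methods give 12 pooled utricles per group, read here as 12 for each library. Replicates therefore differ as pools do, and an undamaged group was not analysed here.

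Melanocytes make melanin inside melanosomes, organelles related to lysosomes. Tyrosinase (Tyr) starts the pathway by oxidising tyrosine, Dct (dopachrome tautomerase) and Tyrp1 act on later intermediates, Pmel forms the fibrils on which the pigment settles, and the transporters set the ions and pH inside the organelle. Mitf binds E-box sequences in many of these genes. In the vestibular organs, melanocytes lie in the connective tissue beneath the dark cells, outside the sensory epithelium.

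Read totals ran from 27879889 to 34335214 counts per library, and replicates differed by more than the sampling of reads gives. Fos itself was 148.82, 150.58, 151.14 and 166.98 CPM (counts scaled to library size after TMM normalization) in the Gent+Fos OE libraries and 34.61, 39.50 and 40.58 CPM in the Gent libraries, higher in every Gent+Fos OE library. The counts do not separate vector from endogenous Fos transcripts. Gent replicate 2 was unlike the rest. Across genes, its departure from the average library was related to gene length (Spearman's rho -0.496, where the other 6 libraries had -0.221 to 0.325), and values without it stand beside several results.

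The pigment genes separated into 7 that were lower in every Gent+Fos OE library than in any Gent library, and 3 whose groups overlapped. The 7 were Tyr, Tyrp1, Dct, Pmel, Mlana, Slc45a2 and Trpm1, which were 2.39-fold (Tyr) to 4.11-fold (Slc45a2) lower in Gent+Fos OE. The other 3 were Slc24a5, Oca2 and Mitf. Over all 17155 genes tested, 12.2% were lower without overlap and 11.3% were higher without overlap. The median log2 fold change of the 10 genes was -1.37, beside -0.00075 over all tested genes, and 1.1% of all tested genes had a log2 fold change at or below that of Tyr, the smallest difference of the 7. In bulk tissue, fewer pigment cells and less pigment gene RNA per cell cannot be told apart.

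**Figure D1:**
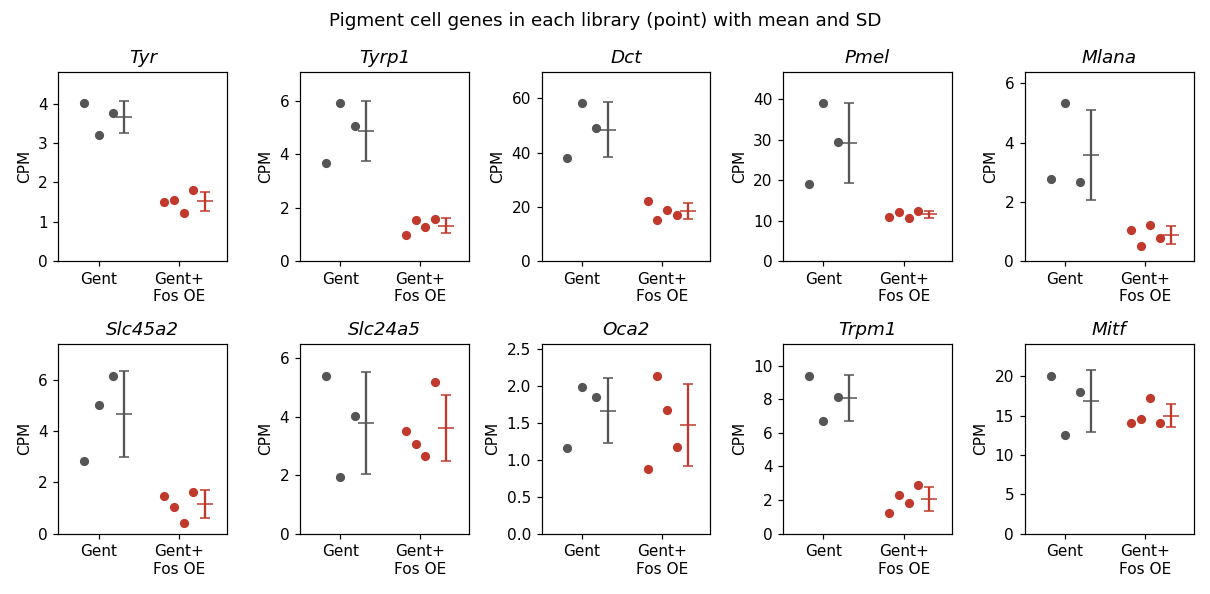
TMM-normalized CPM of each of the 10 pigment cell genes (vertical axes from 0) in the 3 Gent and 4 Gent+Fos OE libraries, one point per library, with the group mean and SD beside the points. The groups do not overlap for Tyr, Tyrp1, Dct, Pmel, Mlana, Slc45a2 and Trpm1, and overlap for Slc24a5, Oca2 and Mitf.

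Among the enzymes, Dct had the most reads. Dct (ENSMUSG00000022129, mm10 chromosome 14, 118012790 to 118052244, minus strand) had 38.0, 58.1 and 49.1 CPM in Gent replicates 1 to 3, and 22.3, 15.3, 18.8 and 17.2 CPM in Gent+Fos OE replicates 1 to 4. The lowest Gent library was therefore above the highest Gent+Fos OE library. Dct averaged 48.4 ± 10.1 CPM (SD, n = 3) in Gent against 18.4 ± 2.98 CPM (SD, n = 4) with Fos OE. Its log2 fold change was -1.40 (SE 0.18). Tyrp1 (ENSMUSG00000005994, chromosome 4, 80834123 to 80851719, plus strand), which acts late in eumelanin synthesis, had 3.66, 5.90 and 5.06 CPM in Gent and 0.977, 1.53, 1.27 and 1.57 CPM in Gent+Fos OE. For Tyrp1 the log2 fold change was -1.87 (SE 0.27), and every Gent library was above every Gent+Fos OE library. Tyr (ENSMUSG00000004651, chromosome 7, 87424771 to 87493512, minus strand), the enzyme that albino mice lack, had 4.00, 3.21 and 3.76 CPM in Gent. In Gent+Fos OE it had 1.498, 1.56, 1.23 and 1.82 CPM, a log2 fold change of -1.26 (SE 0.25). Tyr varied least among the 3 Gent libraries, with an SD of 0.16 on the log2 scale, and Gent replicate 2, which was highest for Dct and Tyrp1, was lowest for Tyr.

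The genes of the melanosome proteins were lower in Gent+Fos OE as well. Pmel (ENSMUSG00000025359, chromosome 10, 128704195 to 128720238, plus strand) had 19.1, 39.0 and 29.6 CPM in Gent and 10.97, 12.3, 10.7 and 12.4 CPM in Gent+Fos OE. The Gent libraries spread widely and the Gent+Fos OE libraries closely, with SDs of 9.96 and 0.877 CPM around means of 29.2 and 11.6 CPM. Its log2 fold change was -1.33 (SE 0.21), or -1.08 without Gent replicate 2, the highest library. Of the exonic bases of Pmel, 6.06% overlap Cdk2 or Dgka, and reads there were not counted. Mlana (ENSMUSG00000024806, chromosome 19, 29697824 to 29708634, plus strand), also known as MART-1 and a partner of Pmel in early melanosomes, had 2.77, 5.32 and 2.66 CPM in Gent and 1.04, 0.521, 1.23 and 0.784 CPM in Gent+Fos OE. Its log2 fold change of -1.996 (SE 0.38) became -1.60 without Gent replicate 2, the highest library. The counts behind Mlana were low, from 17 to 166 reads per library.

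The transporter genes did not move together. Slc45a2 (ENSMUSG00000022243, chromosome 15, 11000721 to 11029233, plus strand), which helps to keep the melanosome at a pH where tyrosinase works, had 2.84, 5.00 and 6.15 CPM in Gent and 1.47, 1.04, 0.412 and 1.64 CPM in Gent+Fos OE. The lowest value, in Gent+Fos OE replicate 3, rested on 13 reads. Its log2 fold change was -2.04 (SE 0.42), and without Gent+Fos OE replicate 3 it was -1.76. Slc24a5 (ENSMUSG00000035183, chromosome 2, 125068124 to 125088677, plus strand), a sodium and calcium exchanger needed for normal pigmentation, had 5.41, 1.96 and 4.02 CPM in Gent. In Gent+Fos OE it had 3.52, 3.06, 2.66 and 5.20 CPM, all within the range of the Gent libraries. The fitted log2 fold change was -0.07 (SE 0.35), and its sign turned when Gent replicate 1 was left out (0.27), while without Gent replicate 2 it was -0.39. Of its exonic bases, 39.5% overlap Myef2, so fewer of its reads could be counted. Oca2 (ENSMUSG00000030450, chromosome 7, 56239760 to 56536518, plus strand), which contributes to a chloride conductance of melanosomes and is mutated in pink-eyed dilution mice, had 1.16, 1.99 and 1.85 CPM in Gent and 0.879, 2.14, 1.68 and 1.18 CPM in Gent+Fos OE. The Gent+Fos OE libraries held both the lowest and the highest value, and the log2 fold change was -0.18 (SE 0.38), and it ran from -0.42 without Gent+Fos OE replicate 2 to -0.01 without Gent+Fos OE replicate 1. With 27 to 70 reads per library, Oca2 could have differed by an amount its spread hides.

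Trpm1 (ENSMUSG00000030523, chromosome 7, 64153835 to 64269775, plus strand), first named melastatin and also the channel of retinal ON bipolar cells, had 9.41, 6.70 and 8.12 CPM in Gent. In Gent+Fos OE it had 1.24, 2.33, 1.84 and 2.89 CPM. The gap between the lowest Gent and the highest Gent+Fos OE library was wide for this gene, and the log2 fold change was -1.96 (SE 0.28). Over the 14 alternative fits the log2 fold change of Trpm1 ran from -2.62 to -1.79. Mitf (ENSMUSG00000035158, chromosome 6, 97807052 to 98021349, plus strand) had 20.1, 12.5 and 18.03 CPM in Gent and 14.1, 14.6, 17.3 and 14.1 CPM in Gent+Fos OE. All 4 Gent+Fos OE libraries lay between the lowest and the highest Gent library, but this overlap rested on Gent replicate 2 alone, and without it Mitf too was lower in every Gent+Fos OE library. Mitf averaged 16.9 ± 3.91 CPM (SD, n = 3) in Gent against 15.02 ± 1.51 CPM (SD, n = 4) with Fos OE. Its log2 fold change was -0.17 (SE 0.18), with -0.35 without Gent replicate 2 and -0.03 without Gent replicate 1. The counts are per gene and do not separate the melanocyte transcript of Mitf from its other transcripts, which macrophages, osteoclasts and pigment epithelium use.

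A gene counted as called when edgeR's quasi-likelihood test gave it a p under 0.01 after Benjamini-Hochberg adjustment over all genes, and its log2 fold change exceeded 0.25 in size. Of the 10 pigment cell genes, 3 (Tyrp1, Dct and Trpm1) were called, all lower. Over all tested genes, 0.414% were called, 0.28% lower and 0.134% higher, and nothing is read from the difference, since this comparison chose the genes. The 7 genes without overlap were also the 7 with an unadjusted p under 0.05 in the lower direction, which 13.4% of all tested genes had, and 11.1% had one in the higher direction. DESeq2 called all 7 (2.86% of its genes were called) and limma-voom called 2, Dct and Trpm1 (0.379% of all genes). Calls became fewer over all genes when most single libraries were left out. With edgeR, 0 of the 10 were called without any of Gent+Fos OE replicates 1 to 4 or without Gent replicate 3, fits that called 0.0296% to 0.142% of all genes. There were 3 (Tyrp1, Dct and Pmel) without Gent replicate 1, where 0.414% of all genes were called, and 3 (Dct, Pmel and Trpm1) without Gent replicate 2, where 0.787% were. The unadjusted p was under 0.05 in the lower direction for 7 of the 10 in 6 of these 7 fits (9.68% to 16.8% of all genes). Without Gent replicate 2 it was so for 8, Mitf being the one added (10.2% of all genes). The median log2 fold change stayed between -1.55 and -1.30.

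**Figure D2:**
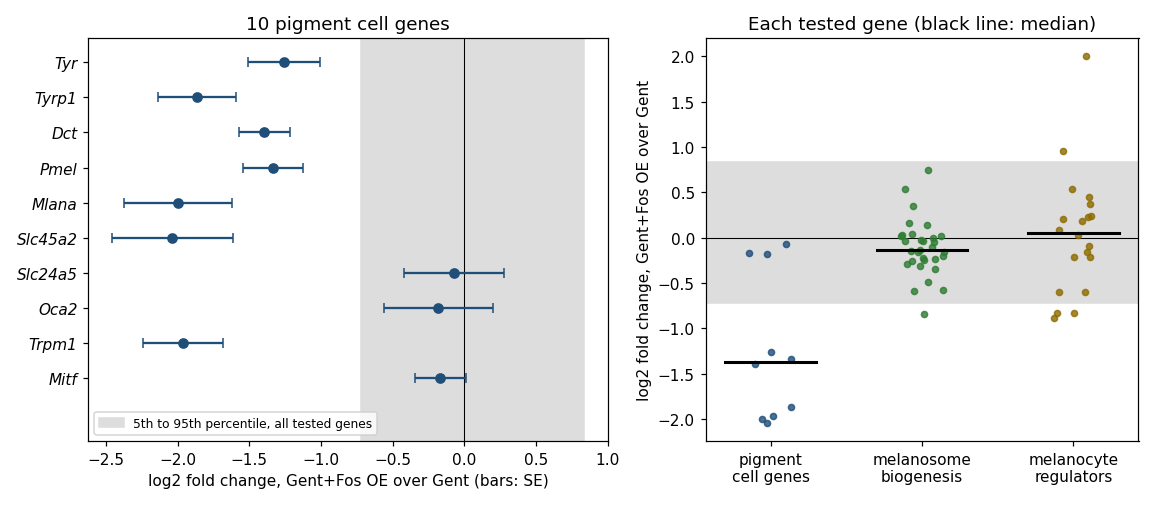
Left, log2 fold change of each pigment cell gene (Gent+Fos OE over Gent, edgeR) with its standard error, and in grey the span from the 5th percentile (-0.72) to the 95th percentile (0.84) of all tested genes. Right, each tested gene of the pigment cell, melanosome biogenesis and melanocyte regulator lists, with the list median as a black line (-1.37, -0.13 and 0.06) and the same grey span.

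Levels of different genes were compared per exon length, as RPKM (CPM divided by the exon length in kb). In Gent the order was Pmel (12.7 ± 4.34), Dct (8.21 ± 1.71), Mlana (3.39 ± 1.42), Mitf (2.72 ± 0.631), Tyrp1 (1.72 ± 0.399), Slc24a5 (1.63 ± 0.746), Slc45a2 (1.56 ± 0.564), Trpm1 (0.548 ± 0.0920), Tyr (0.514 ± 0.0576) and Oca2 (0.421 ± 0.111 RPKM, SD, n = 3 each). The ranges of mean ± SD of neighbours in this order overlapped, except from Dct to Mlana and from Slc45a2 to Trpm1. In Gent+Fos OE, Mitf and Slc24a5 came next after Pmel (5.06 ± 0.383 RPKM) and Dct (3.12 ± 0.505 RPKM). Mitf was then at 2.42 ± 0.243 RPKM, Slc24a5 at 1.55 ± 0.480 and Mlana at 0.847 ± 0.294. The bases that Slc24a5 shares with Myef2 gave no reads, and over its other exonic bases Slc24a5 had 2.69 ± 1.23 RPKM in Gent and 2.56 ± 0.794 RPKM in Gent+Fos OE, so its place relative to Mitf and Tyrp1 is not settled by these values. Trpm1, at 0.141 ± 0.0477 RPKM (SD, n = 4), was the lowest of the 10, below Oca2 (0.371 ± 0.141) and Tyr (0.215 ± 0.0337). Summed over the 9 pigment genes other than Mitf, the Gent libraries had 86.4, 127 and 110 CPM and the Gent+Fos OE libraries 43.9, 39.7, 39.8 and 44.7 CPM, so the sum was 2.57-fold higher in Gent. Within that sum Dct took 44.7% ± 0.862 (SD, n = 3) in Gent and 43.7% ± 6.26 (SD, n = 4) in Gent+Fos OE, and Pmel 26.5% ± 4.29 and 27.6% ± 2.46. The share of neither gene differed by more than the spread between libraries.

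Set against Mitf within each library, the 7 genes without overlap stayed apart between the groups. The log2 ratio of Trpm1 to Mitf was -1.09, -0.90 and -1.14 in Gent replicates 1 to 3 and -3.45, -2.61, -3.19 and -2.26 in Gent+Fos OE replicates 1 to 4. For Tyr it was -2.31, -1.95 and -2.24 in Gent and -3.18, -3.17, -3.74 and -2.91 in Gent+Fos OE. The ratio of Dct was 0.92, 2.21 and 1.44 in Gent and 0.66, 0.07, 0.12 and 0.28 in Gent+Fos OE, so the groups came close here. They were about as close for Slc45a2 (lowest Gent -2.79, highest Gent+Fos OE -3.06). The groups came closest for Pmel, where Gent replicate 1 (-0.07) lay just above Gent+Fos OE replicate 4 (-0.19). The differences between group means of the log2 ratio were -1.24 for Dct, -1.09 for Tyr, -1.67 for Tyrp1, -1.13 for Pmel, -1.77 for Mlana, -1.91 for Slc45a2 and -1.83 for Trpm1. Without Gent replicate 2 the difference was -0.69 for Pmel, -0.90 for Dct, -1.32 for Tyrp1 and -1.25 for Mlana, and the groups of the 7 genes still did not overlap. For Slc24a5 the difference was 0.15 and for Oca2 -0.07, both overlapped, and without Gent replicate 2 the signs turned (-0.06 and 0.27). Both differences were smaller than the SDs of the ratios within the groups, 0.39 to 0.71 on the log2 scale. The median of the 9 fitted log2 fold changes, less that of Mitf, was -1.23, and it was -1.001 without Gent replicate 2 and -1.54 without Gent replicate 1. Gent replicate 2 had the lowest Mitf and the highest Dct, Pmel, Tyrp1 and Mlana of its group, so it widened these ratios.

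**Figure D3:**
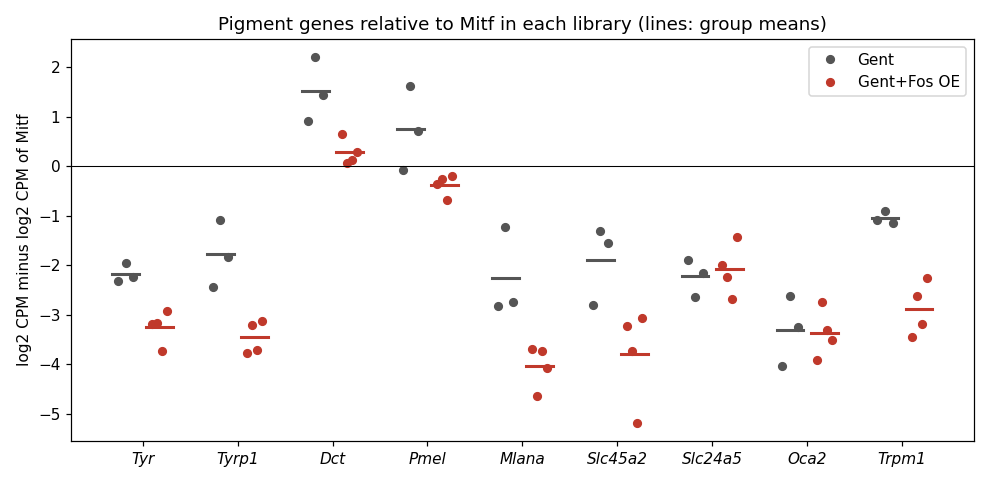
Log2 CPM of each of 9 pigment genes less the log2 CPM of Mitf in the same library (vertical axis, log2 scale, prior count 2), with one point per library and a line at each group mean. The Gent+Fos OE points lie below all Gent points for 7 genes, and the groups overlap for Slc24a5 and Oca2.

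Promoter windows were read for the members with an entry in the RefSeq promoter table (GRCm38.p6, the assembly called mm10), which held 10 windows for 7 of the 10 genes and none for Pmel, Mlana and Slc45a2. Each window runs from 250 bases before to 50 bases after a start site. The E-box CATGTG, a sequence that MITF binds, was in 7 of the 10 windows in either direction, and 14.2% of all 32851 windows of 300 bases held it. Those windows belonged to 6 of the 7 genes. Its longer form TCATGTG, the M-box, which contains CATGTG, was in 5 of the 10 windows (of Tyr, Tyrp1, Dct, Trpm1 and Slc24a5) against 3.77% of all windows. The AP-1 sequence TGACTCA, a kind of site that Fos binds with Jun, was found in 0 of the 10 windows in either direction, and 5.2% of all windows held it. At that share 0 of 10 windows is no departure, and nothing is read from it. Other forms of AP-1 site were not searched. The E-box CACGTG was in 1 window, at the downstream Trpm1 start, against 7.15% of all windows. A match is a description of letters and not of binding. The 5 windows with an M-box are shown because they belong to the 4 searched genes without overlap (Tyr, Tyrp1, Dct and Trpm1) and to Slc24a5, which overlapped between the groups. They are written 5′ to 3′ on the strand of the gene, with capitals marking the M-box in the printed direction (TCATGTG) or the other direction (CACATGA). The first base of the motif lay 22 bases before the start in Tyr, 47 in Tyrp1, 232 and 151 in Dct, 142 in Trpm1 and 13 in Slc24a5.
Tyr, chr7:87493463-87493762, minus strand: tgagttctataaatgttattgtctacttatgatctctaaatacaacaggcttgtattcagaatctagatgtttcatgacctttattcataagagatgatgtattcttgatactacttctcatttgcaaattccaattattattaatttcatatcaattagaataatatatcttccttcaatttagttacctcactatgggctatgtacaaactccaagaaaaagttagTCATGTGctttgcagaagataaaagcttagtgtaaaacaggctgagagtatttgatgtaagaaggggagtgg
Tyrp1, chr4:80833963-80834262, plus strand: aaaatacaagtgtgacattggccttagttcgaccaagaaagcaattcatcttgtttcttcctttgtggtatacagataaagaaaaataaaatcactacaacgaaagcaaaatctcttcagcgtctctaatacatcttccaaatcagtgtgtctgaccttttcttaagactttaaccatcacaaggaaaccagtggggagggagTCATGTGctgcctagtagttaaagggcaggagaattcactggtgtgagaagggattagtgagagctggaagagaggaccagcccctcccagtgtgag
Dct, chr14:118052197-118052496, minus strand: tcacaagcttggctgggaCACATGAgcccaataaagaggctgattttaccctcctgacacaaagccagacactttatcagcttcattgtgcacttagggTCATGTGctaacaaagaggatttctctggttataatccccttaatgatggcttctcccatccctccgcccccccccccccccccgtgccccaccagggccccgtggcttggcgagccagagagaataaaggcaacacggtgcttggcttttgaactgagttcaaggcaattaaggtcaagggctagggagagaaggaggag
Trpm1, chr7:64153585-64153884, plus strand, upstream start: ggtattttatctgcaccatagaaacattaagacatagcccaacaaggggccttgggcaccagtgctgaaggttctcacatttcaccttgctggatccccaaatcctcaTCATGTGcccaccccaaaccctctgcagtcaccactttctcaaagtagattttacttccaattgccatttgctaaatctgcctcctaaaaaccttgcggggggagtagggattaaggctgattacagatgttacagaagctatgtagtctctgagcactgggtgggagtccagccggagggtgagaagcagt
Slc24a5, chr2:125067877-125068176, plus strand: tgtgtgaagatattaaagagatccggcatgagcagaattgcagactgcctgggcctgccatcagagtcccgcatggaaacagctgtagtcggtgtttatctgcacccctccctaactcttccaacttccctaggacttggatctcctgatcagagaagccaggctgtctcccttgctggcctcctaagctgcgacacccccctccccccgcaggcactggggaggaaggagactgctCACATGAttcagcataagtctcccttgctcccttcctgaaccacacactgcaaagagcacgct

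The windows with an M-box thus belonged to genes that differed in their values. Tyr, Tyrp1, Dct and Trpm1 had log2 fold changes of -1.26 to -1.96, and Slc24a5 had -0.07. Oca2, whose window held CATGTG without the flanking T, had -0.18. The 3 Mitf windows held no E-box of either kind searched.

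The rest of the melanosome machinery is also used for other lysosome-related organelles. Of 32 listed genes for melanosome biogenesis and transport, 31 were tested, and 0 were called by edgeR, where 0.414% of all tested genes were. The median of their log2 fold changes was -0.13 (-0.07 without Gent replicate 2), and 22 were negative and 9 positive, where 50.1% of all tested genes were negative. The median deviation of the list was lower in each Gent+Fos OE library (-0.11 to 0.0043) than in each Gent library (0.011 to 0.31). Of the list, 4 (12.9%) had an unadjusted p under 0.05, all lower, a share close to the 13.4% of all tested genes. These 4 were Rab38, Rab32, Tcirg1 and Dtnbp1, and nothing is read from their number. Rab38 and Rab32 are the small GTPases that deliver tyrosinase and Tyrp1 to melanosomes. Rab38 had 9.24, 18.6 and 12.2 CPM in Gent and 8.01, 8.33, 6.90 and 6.63 CPM in Gent+Fos OE, a log2 fold change of -0.84 (SE 0.23, adjusted p = 0.0874, edgeR). Without Gent replicate 2, the highest library for Rab38, it was -0.53 (adjusted p = 0.131, edgeR). Rab32 had a log2 fold change of -0.58 (SE 0.13, adjusted p = 0.0535, edgeR), with 36.3 to 43.6 CPM in Gent and 24.6 to 30.1 CPM in Gent+Fos OE. Neither pair of groups overlapped. Gpnmb, a Pmel relative that macrophages also make in quantity, had 1063 CPM in Gent and 1077 CPM in Gent+Fos OE (log2 fold change 0.02, SE 0.16), and Rab27a, which tethers melanosomes to the transport motor, had -0.05 (SE 0.18). Gpr143, the ocular albinism receptor of melanosomes, had too few reads to be tested, with 38 over the 3 Gent libraries and 10 over the 4 Gent+Fos OE libraries.

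Regulators, receptors and ligands of the melanocyte lineage were higher in some cases and lower in others. Of 22 listed genes, 20 were tested, the median of their log2 fold changes was 0.06 (-0.08 without Gent replicate 2), and 1 (Irf4) was called, where 0.134% of all tested genes were called higher. Irf4, a transcription factor of lymphoid and myeloid cells that also acts with MITF on the tyrosinase gene in melanocytes, rose. It had 1.75, 2.72 and 2.28 CPM in Gent and 7.52, 10.6, 9.31 and 8.70 CPM in Gent+Fos OE, a log2 fold change of 2.002 (SE 0.22, adjusted p = 0.00246, edgeR). Irf4 was thus higher in every Gent+Fos OE library, the opposite direction to Tyr. Its call was lost without Gent+Fos OE replicate 3 or 4 or Gent replicate 3, with log2 fold changes of 1.85 to 2.15 over all leave-one-out fits. Of the list, 4 genes (20.0%) had an unadjusted p under 0.05 in the higher direction and 4 (20.0%) in the lower, beside 11.1% and 13.4% of all tested genes. The higher ones were Irf4, Met, Erbb3 and Kitl, and the lower ones Tfec, Snai2, Edn3 and Foxd3. Tfec, of the Mitf family, had a log2 fold change of -0.88 (SE 0.19, adjusted p = 0.0428, edgeR). Snai2, a neural crest factor, had -0.83 (SE 0.21, adjusted p = 0.0745), and Met, the receptor for hepatocyte growth factor, had 0.96 (SE 0.24, adjusted p = 0.0729), both from edgeR. Without Gent replicate 2, Met had 0.68 (adjusted p = 0.0321, edgeR). Edn3, the ligand of Ednrb, had -0.83 (SE 0.25, adjusted p = 0.11, edgeR) with no overlap of the groups, and Foxd3, a neural crest factor, had -0.59 (SE 0.23, adjusted p = 0.167, edgeR) with overlap. Sox10, which activates Mitf in neural crest cells and is also made by glia and inner ear epithelium, had 222.9 CPM in Gent and 209.3 CPM in Gent+Fos OE (log2 fold change -0.09, SE 0.24). The receptor genes Kit and Ednrb, on which melanoblasts depend, had log2 fold changes of 0.21 (SE 0.28) and -0.22 (SE 0.16), and Pax3 had 0.03 (SE 0.46) at under 1 CPM. Asip was not matched by symbol and Mc1r, with at most 2 reads in a library, was not tested.

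Marker lists of other cells of the explant were read beside these values. The summed macrophage markers were lower in Gent+Fos OE, as the pigment genes were. Their sum was 5582 to 7582 CPM in Gent and 3408 to 5249 CPM in Gent+Fos OE, 14 of the 15 had a negative log2 fold change (median -0.65), 11 (73.3%) had an unadjusted p under 0.05 in that direction against 13.4% of all tested genes, and none was at 0. By edgeR 0 of them were called, where 0.28% of all tested genes were called lower. The part of macrophages in the values of Mitf or of the other genes was not tested. For 15 Schwann cell and glial markers the sum was 564 to 641 CPM in Gent and 533 to 590 CPM in Gent+Fos OE, with 4 (26.7%) at an unadjusted p under 0.05, all lower. Their median log2 fold change was 0.04 but -0.06 to -0.0015 over the 7 fits without 1 library and -0.13 with the length trend removed. Its lowest value over the 14 alternative fits was -0.25. The median deviation of the list was lower in each Gent+Fos OE library (-0.20 to -0.05) than in each Gent library (0.05 to 0.12). The dark cell list, of cells that lie above the melanocytes, had a median of 0.03, which turned to -0.08 without Gent replicate 1, and sums of 2472 to 2877 CPM in Gent and 2460 to 3098 CPM in Gent+Fos OE. The median was -0.12 for mesenchyme (-0.01 without Gent replicate 1) and -0.01 for endothelium (-0.12 to 0.12 over the 7 fits without 1 library). It was 0.12 for neurons (-0.11 without Gent replicate 1), 0.16 for hair cells (0.07 without Gent replicate 1) and 0.24 for supporting cells (0.13 without Gent replicate 2). The hair cell median was 0.02 at its lowest over the 14 alternative fits. In the higher direction, 6 of 14 hair cell markers (42.9%), 6 of 13 supporting cell markers (46.2%) and 3 of 10 neuron markers (30.0%) had an unadjusted p under 0.05, beside 11.1% of all tested genes. By edgeR 1 of the 101 marker genes tested in the 8 lists was called (Otog, higher), where 0.134% of all tested genes were called higher. Without Gent replicate 2 there were 2, and 0 in each of the other 6 fits without 1 library and with the length trend removed.

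**Figure D4:**
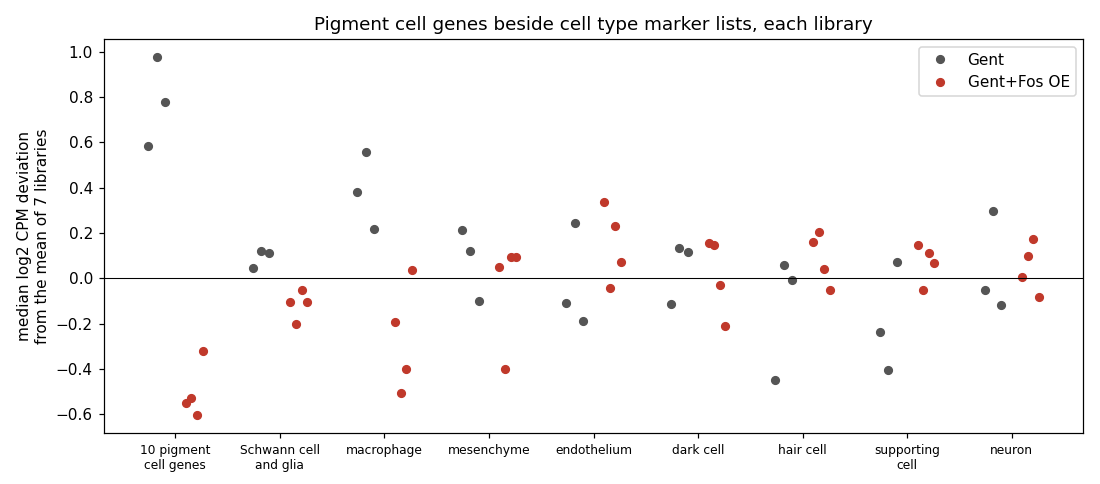
Median departure of log2 CPM from the average of all 7 libraries, over the 10 pigment cell genes and over each of 8 marker lists, with one point per library. The pigment cell genes lie at 0.58 to 0.98 in Gent and -0.60 to -0.32 in Gent+Fos OE, and the macrophage and Schwann cell lists are also lower in Gent+Fos OE, by smaller amounts.

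The 6 other genes whose log2 CPM followed the mean of the 9 pigment genes most closely over the 7 libraries were Dhx58, Crym, Phyh, Il1b, Mcm6 and Psmb10, with Pearson's r from 0.986 (Psmb10) to 0.993 (Dhx58). These r values are given as a measure of likeness with no test, since both groups enter them and any gene that separates the groups scores high. All 6 were lower in Gent+Fos OE without overlap. Il1b, an inflammatory cytokine gene, had 5.07, 7.60 and 6.59 CPM in Gent and 1.77 to 1.89 CPM in Gent+Fos OE (log2 fold change -1.81, SE 0.22). Dhx58, a sensor of viral RNA, had -1.05 (SE 0.15), and Crym, a thyroid hormone binding protein, had -0.67 (SE 0.13).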

How the data were processed

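Bulk RNA sequencing of pooled utricle explants gave 7 libraries. The authors deposited raw counts per gene for each library, made with featureCounts 2.0.6 and a mm10 annotation per the file headers, without strand, with each read of a pair counted separately and with reads that overlap several genes left out. The submitters' processing notes also name Trim Galore 0.6.10, HISAT2 2.2.1 and DESeq2 1.34.0. The methods of the study name another genome build and other releases of Trim Galore, featureCounts and DESeq2, and 3 replicates per condition where the labels give 4 and 3. The deposited gene length was used for RPKM.

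Groups came from the sample labels. The pigment genes and the 10 gene lists were chosen with earlier results of these data known. Counts were filtered with filterByExpr, scaled by TMM and fitted with edgeR 4.0.16 (R 4.3.3, quasi-likelihood test, 17155 genes). CPM and RPKM were computed from the deposited counts, and log2 CPM used a prior count of 2. Gene symbols came from GENCODE and RefSeq tables (24497 genes). Named genes outside the 10 were those called in the melanosome and melanocyte lists plus the lowest p-values there, up to 6, Fos, and the 6 genes most like the pigment genes over the 7 libraries (mean of at least 1 CPM). Other genes are named as examples and were chosen after their values were seen. The labels call the replicates biological. P-values measure the spread between these pools, part of which may be technical. The scripts were tested on simulated data. The 14 alternatives were DESeq2 1.42.0, limma-voom (limma 3.58.1), RLE scaling, no filter, each library left out, a replicate block, removal of a gene length trend (loess, span 0.3), and the block with that removal.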

Additional observations from a re-analysis of the deposited data

Results flagged for a closer look

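Values of 23 genes were examined in the 4 Gent+Fos OE libraries for a library far from the others, and 3 met Dixon's 95% limit for a group of 4. Chance gives such a value in about 1 in 20 groups. Mitf was 17.3 CPM in Gent+Fos OE replicate 3, above 14.1 to 14.6 CPM in the other 3, and still within the range of the Gent libraries. Fos was 167 CPM in the same library, against 148.8 to 151.1 CPM in the others. Crym was 14.4 CPM in Gent+Fos OE replicate 4, against 13.55 to 13.59 CPM in the others.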

How the results depend on the processing

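The median log2 fold change of the pigment cell genes lay between -1.55 and -1.30 under all 14 alternatives, and the median less Mitf between -1.54 and -1.001. The number of calls was less stable. DESeq2 called 273 genes higher and 327 lower, 7 of them pigment cell genes, 4 other melanosome and melanocyte genes and 11 marker genes. Without a filter edgeR called 63 higher and 141 lower, with 6 pigment cell genes and 2 marker genes. With each library left out in turn it called 2 to 45 higher and 3 to 93 lower, lowest without Gent+Fos OE replicate 3 and highest without Gent replicate 2, with 0 to 3 pigment cell genes, 0 to 1 other melanosome and melanocyte genes and 0 to 2 marker genes. With the gene length trend removed there were 35 higher and 95 lower, with 4 pigment cell genes (Tyrp1, Dct, Pmel and Trpm1) and 0 marker genes.

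The labels number the replicates alike in both groups. Deviations of libraries with the same number correlated at 0.0643, -0.038 and 0.0317, so the numbers were not taken as pairs. With a replicate block edgeR called 0 genes higher and 0 lower, so 0 pigment cell genes (7 at an unadjusted p under 0.05), 0 other melanosome and melanocyte genes and 0 marker genes, and the median of the pigment cell genes was -1.35. The block with the length trend removed gave 17 higher and 31 lower, with 1 pigment cell gene (Trpm1) and 0 marker genes.

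The log2 fold change of Slc24a5 changed sign, to 0.0018 with the length trend removed, and it ran from -0.39 to 0.27 over the fits without 1 library. Its reads, 61 to 158 per library, and those of Oca2 limit both values. Leaving out each library for the ratios to Mitf, and leaving shared bases out of the exon length, were added after seeing the data. The causes of these changes were not tested.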
